A study of Homo sapiens with 9 samples.

Results

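DNA repair genes are described here as a list of 41 genes that recognise, signal or mend damaged DNA, chosen by gene symbol from the deposited table. All 41 symbols were found among its 60683 genes, and all 41 were among the 22672 genes with enough counts to test. By role, 13 act in homologous recombination, 7 in break sensing and checkpoint signalling, 10 in the Fanconi pathway, 4 in mismatch repair, 5 in end joining and 2 in single-strand break repair. The RNA came from Hep3B, an established human liver cancer line. It was measured by RNA-seq after 24 hours in cells given vehicle (DMSO) at 20% O2, vehicle at 1% O2 or 32-134D, an inhibitor of hypoxia-inducible factors (HIFs), at 1% O2. Each group held 3 libraries that the labels call biological replicates, and 32-134D was not tried at 20% O2 in these libraries. The line is 1 cell line in culture, and the sample labels give no dose of 32-134D.

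Double-strand breaks are joined directly by end joining, in which the Ku proteins hold the ends, the kinase DNA-PK gathers the machinery and LIG4 seals the nick, or are copied from the sister chromatid by homologous recombination. The Fanconi proteins unhook crosslinked strands, and mismatch repair removes copying errors. Most recombination and Fanconi genes are used in S and G2 phase, and several are targets of E2F factors, so that in dividing cells their mRNA follows the cell cycle as well as the demand for repair.

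Total counts ran from 6013980 to 40549699 per library. Levels are given as CPM, which are counts scaled to a common library size by TMM, or as TPM, which are also scaled by gene length, where genes are compared with each other. A gene was called when its Benjamini-Hochberg adjusted p in edgeR's quasi-likelihood test was below 0.05 and its fold change exceeded 1.5. Replicate 3 of 32-134D stood apart. The chi-square of its counts against replicates 1 and 2 was 36.4 and 32.5 for each degree of freedom, and 2.0 between replicates 1 and 2. Vehicle replicate 2 at 20% O2 was the smallest library. Without replicate 3 of 32-134D, the calls given below came to 11 higher and 9 lower at 1% O2. That fit gave 8 and 3 with 32-134D against vehicle at 1% O2, and 1 and 0 against vehicle at 20% O2. In the same order, the calls were 10 and 9, 8 and 4, and 1 and 0 without replicate 2 of vehicle at 20% O2. They were 11 and 11, 10 and 3, and 1 and 0 without replicate 1 of vehicle at 20% O2. Without replicate 1 of vehicle at 1% O2 they were 10 and 9, 7 and 3, and 1 and 0. The hypoxia markers CA9, EPO, ANGPTL4, NDRG1 and VEGFA were between 2.45 and 5.43 higher on the log2 scale in vehicle at 1% O2 than at 20% O2. Hepatocyte markers summed to between 8990 and 15600 CPM in the 9 libraries. Summed fibroblast markers were 35.3 to 39.3 CPM in vehicle at 20% O2, 12 to 13.3 in vehicle at 1% O2 and 30.1 to 31.6 with 32-134D, with 2 of these 5 markers at 3 counts or fewer in every library. The part of this movement in the results was not tested. In bulk RNA, fewer cells in a phase of the cycle and less RNA per cell cannot be told apart.

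At 1% O2 the list split into genes that rose and genes that fell. Of the 41 genes, 11 were called higher in vehicle at 1% O2 than at 20% O2 and 9 were called lower, or 26.8% and 22%. Over all genes tested, 19.5% were called higher and 20.3% lower. All 41 genes reached 10 counts in each library, as did 12912 genes in all, and of those 26.4% were called higher and 22.5% lower, so the list as a whole stood near the background. The median log2 fold change was 0.06 over the list and 0.00 over all genes tested. In 30 of the 41 genes the libraries of the 2 groups did not overlap, compared with 60.5% of all genes tested. With 32-134D at 1% O2, 8 genes were called higher than in vehicle at 1% O2 (19.5%, against 16.2% of all genes tested) and 4 were called lower (9.76%, against 13.7%). Of the 12912 genes with 10 counts in each library, 18% were called higher and 18.1% lower in that comparison. The list stood near this background for higher calls and below it for lower calls, a difference that was not tested. The libraries did not overlap in 31 of the 41 genes, against 56.1% of all genes tested. This share, like the 60.5% at 1% O2, includes genes with fewer than 10 counts in some libraries. Scaling to total library size or to the upper quartile moved all genes down by 0.21 or 0.19 log2 at 1% O2, and up by 0.18 or 0.12 with 32-134D. At 1% O2 the list then held 6 genes called higher and 13 lower under either scaling. With 32-134D it held 11 higher and 1 lower by total size, and 11 higher and 2 lower by the upper quartile. All 3 comparisons share libraries pairwise, so their values depend on each other. For some genes below only the change at 1% O2 is given. With 32-134D against vehicle at 1% O2, 5 further genes were higher and 10 lower at an edgeR adjusted p below 0.05, under the fold threshold. Over the 22672 genes tested these were 1298 and 2688. Among the 5 were FANCF (0.58 log2) and FANCA (0.55), and among the 10 RAD51C (-0.58), MSH6 (-0.56) and CHEK2 (-0.55).

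**Figure D1:**
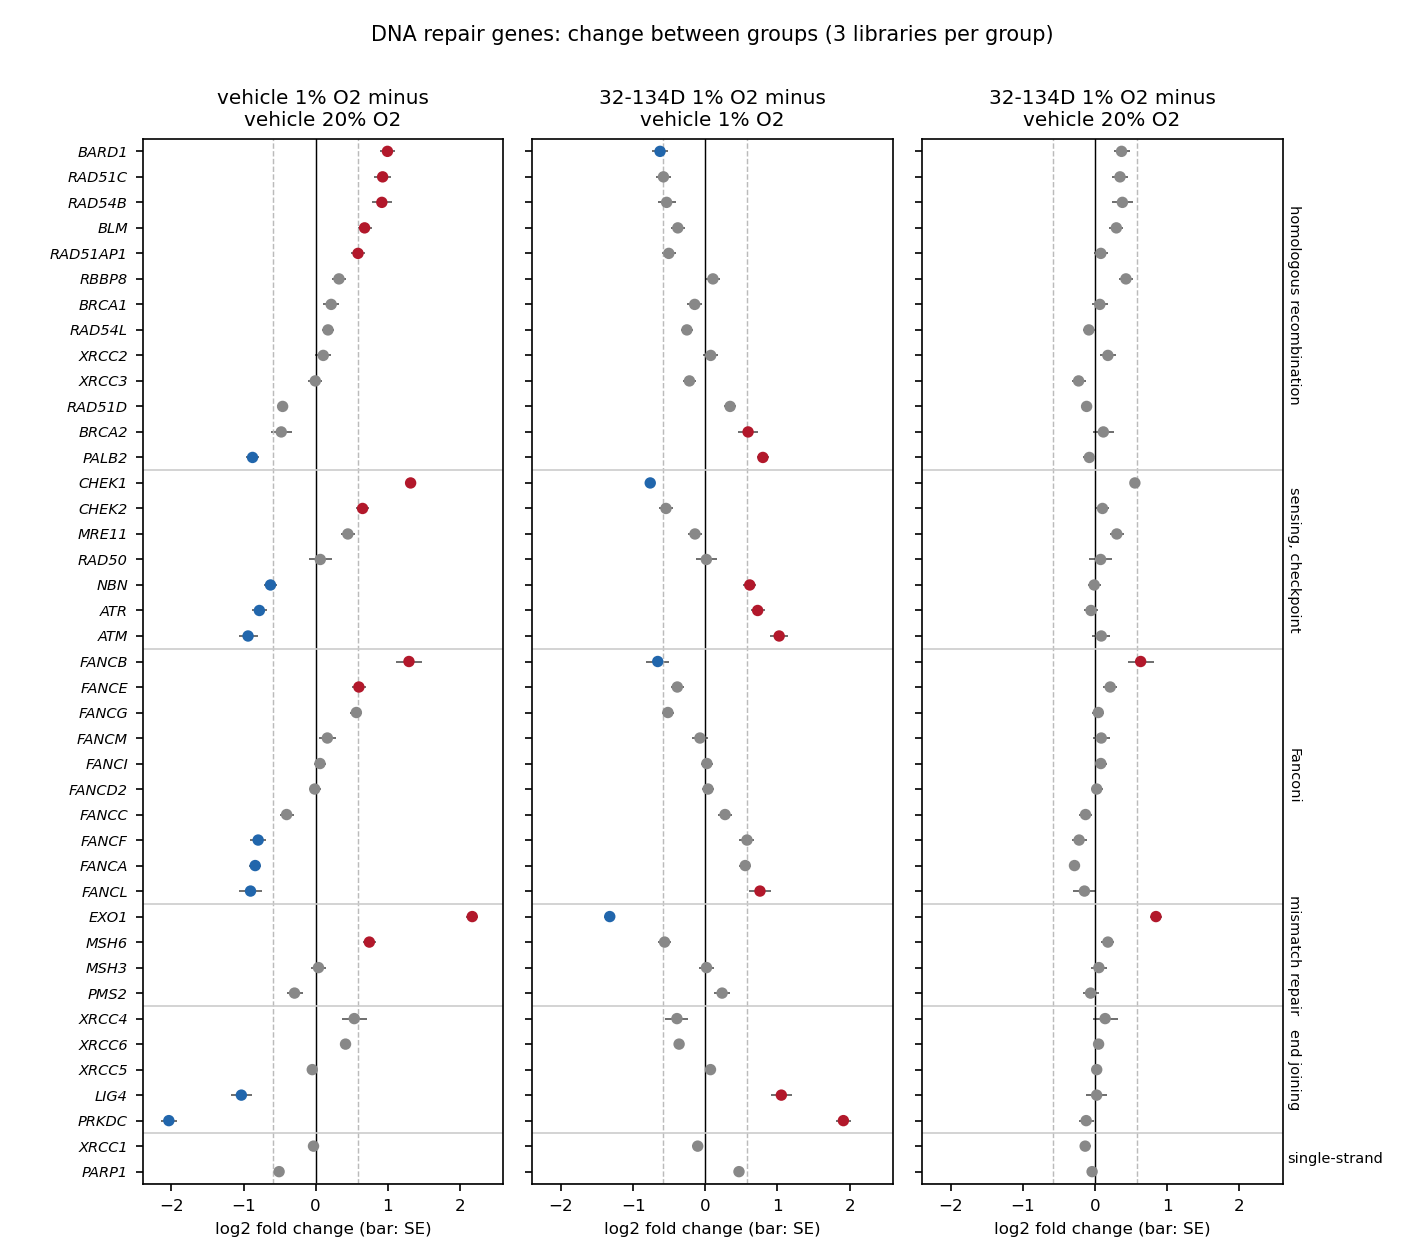
The log2 fold change of each of the 41 genes (points, with SE as bars) is plotted for the 3 comparisons, in blocks by role, with 3 libraries per group. Red and blue mark genes called higher and lower, grey marks the rest, and dashed lines mark the 1.5-fold threshold. At 1% O2 EXO1 lies farthest to the right at 2.17 and PRKDC farthest to the left at -2.04, and in the comparison of 32-134D at 1% O2 with vehicle at 20% O2 only EXO1 and FANCB are coloured.

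End joining held the gene with the largest fall. PRKDC encodes the catalytic subunit of DNA-PK, the kinase that Ku recruits to broken ends, and lies on chromosome 8. Its level was 608, 782 and 822 CPM in the 3 libraries of vehicle at 20% O2, 194, 173 and 172 CPM in vehicle at 1% O2, and 637, 658 and 739 CPM with 32-134D. The vehicle libraries at 1% O2 lay below all others, and the remaining groups overlapped each other. PRKDC fell 4.10-fold at 1% O2 (log2 fold change -2.04 ± 0.11 (SE), edgeR adjusted p = 1.09e-09) and was 3.77-fold higher with 32-134D than without it (edgeR adjusted p = 5.98e-09). With 32-134D it did not differ detectably from vehicle at 20% O2 (-0.12 ± 0.10 (SE), edgeR adjusted p = 0.523).

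LIG4, the ligase that completes end joining (chr13:108207439-108218368, minus strand, GRCh38), moved in the same directions at a much lower level. Its CPM was 19, 21 and 17.6 in vehicle at 20% O2, 11.2, 7.59 and 8.88 in vehicle at 1% O2, and 18.3, 17.3 and 22.5 with 32-134D. The fall was 2.04-fold (log2 fold change -1.03 ± 0.15 (SE), edgeR adjusted p = 3.14e-05) and the rise with 32-134D was 2.08-fold (edgeR adjusted p = 2.68e-05). The rest of the pathway was not called. XRCC4, the scaffold that holds LIG4, was 0.54 ± 0.17 (SE) higher on the log2 scale at 1% O2, under the fold threshold. XRCC6, which encodes Ku70, was 0.41 ± 0.06 (SE) higher, with libraries at 465 to 490 CPM in vehicle at 20% O2 and 625 to 636 CPM in vehicle at 1% O2. XRCC5, which encodes Ku80, stood at 528 to 589 CPM across all 6 vehicle libraries, and its groups overlapped.

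Among 7 break sensors and checkpoint kinases, ATM, ATR and NBN fell and CHEK1 and CHEK2 rose. With length and GC trends removed, ATM (-0.45), ATR (-0.55) and CHEK2 (0.58) were under the fold threshold at 1% O2, as were ATM (0.44), ATR (0.39) and NBN (0.53) with 32-134D. ATM, the kinase activated by double-strand breaks, was at 42.0, 51.5 and 54.7 CPM in vehicle at 20% O2, 29.9, 23.9 and 23.5 CPM in vehicle at 1% O2, and 48.0, 48.2 and 61.6 CPM with 32-134D. The groups at 1% O2 did not overlap. ATM fell 1.91-fold at 1% O2 (edgeR adjusted p = 2.15e-05) and was 2.03-fold higher with 32-134D (edgeR adjusted p = 1.15e-05). It overlaps the opposite-strand gene C11orf65 over 60584 bases. ATR, the kinase of stalled forks and single-stranded DNA, fell 1.72-fold (edgeR adjusted p = 1.12e-05) and was 1.65-fold higher with 32-134D (edgeR adjusted p = 2.69e-05). NBN, which brings ATM to breaks, fell 1.54-fold and was 1.53-fold higher with 32-134D. Without replicate 1 of vehicle at 1% O2, NBN missed the fold threshold in both comparisons (-0.58 and 0.57 on the log2 scale), and without replicate 3 of 32-134D in the second (0.55).

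CHEK1, the kinase that ATR activates to hold the cell cycle, rose. Its CPM was 37.4, 36.3 and 35.5 in vehicle at 20% O2, 93.1, 87 and 91.3 in vehicle at 1% O2, and 54.2, 53.6 and 52.3 with 32-134D. The 3 groups were fully separate, with 32-134D between the others. The rise was 2.49-fold (log2 fold change 1.32 ± 0.07 (SE), edgeR adjusted p = 1.4e-09), and with 32-134D the level was 1.70-fold lower than in vehicle at 1% O2 (edgeR adjusted p = 4.69e-07), a call lost with total size scaling at -0.58. It remained 1.47-fold above vehicle at 20% O2 (edgeR adjusted p = 0.000163), under the fold threshold. CHEK2, the effector kinase of ATM, rose 1.57-fold (edgeR adjusted p = 3.51e-05). That call was lost in 7 of 21 alternatives, among them total size scaling, where its log2 fold change was 0.44. CHEK2 reads are also uncertain because near-identical pseudogene copies exist. MRE11, the nuclease of the sensor complex, was 0.45 ± 0.09 (SE) higher on the log2 scale and not called. RAD50 had 5.18 to 7.54 CPM over the 9 libraries and was not called. Its span overlaps that of a same-strand gene model, AC116366.3, over 90061 bases, so its counts are uncertain.

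**Figure D2:**
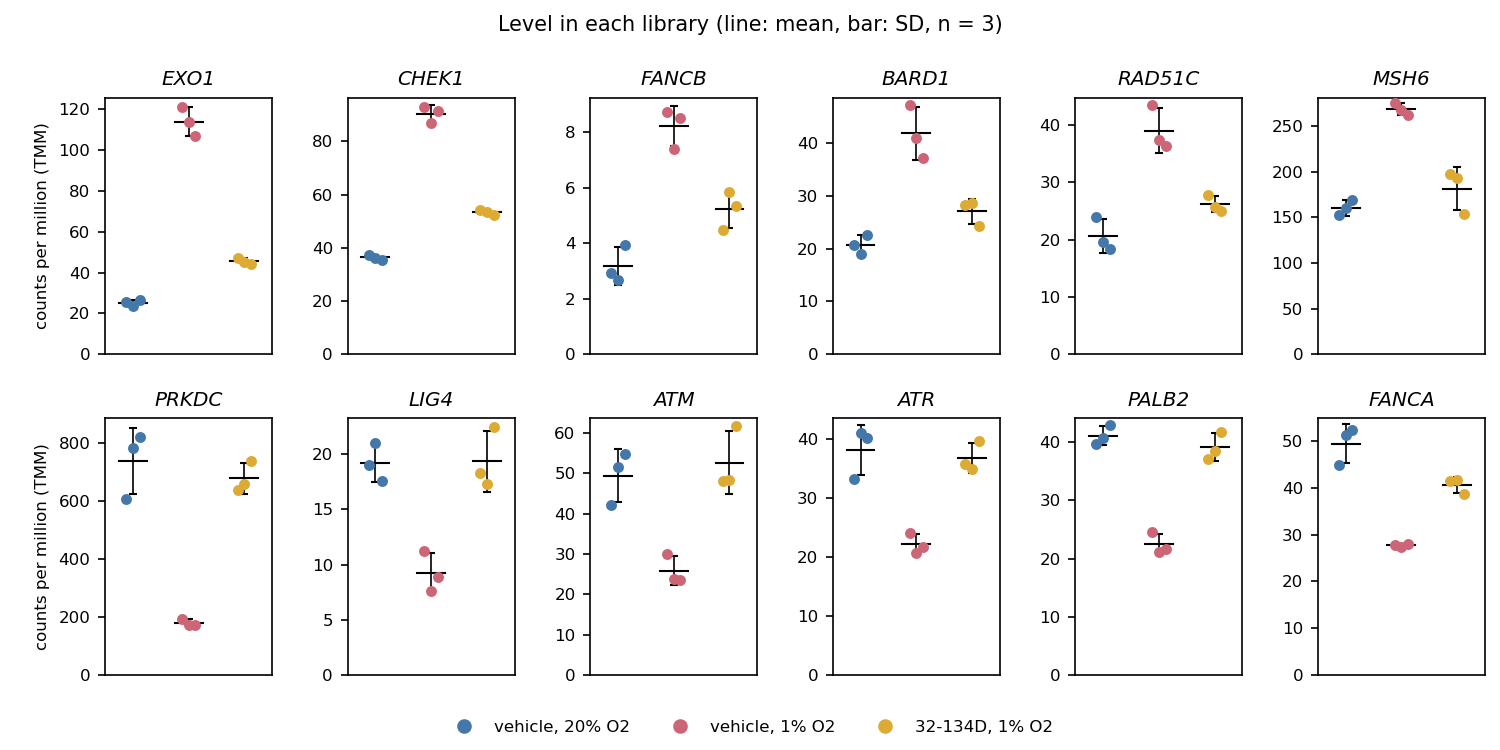
CPM of 12 DNA repair genes in each of the 9 libraries (points), with the mean of each group as a line and the SD as a bar (n = 3). In the upper row the vehicle libraries at 1% O2 are the highest, with EXO1 at 107 to 121 CPM, and in the lower row they are the lowest, with PRKDC at 172 to 194 CPM.

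EXO1 had the largest rise of the list. It encodes an exonuclease that removes the mismatched strand in mismatch repair and also resects broken ends for recombination. Its CPM was 25.5, 23.4 and 26.6 in vehicle at 20% O2, 121, 114 and 107 in vehicle at 1% O2, and 47.3, 45.2 and 44.4 with 32-134D. No 2 groups overlapped. EXO1 rose 4.50-fold at 1% O2 (log2 fold change 2.17 ± 0.08 (SE), edgeR adjusted p = 4.17e-11) and was 2.5-fold lower with 32-134D (edgeR adjusted p = 7.88e-09). With 32-134D it was still 1.80-fold above vehicle at 20% O2 (edgeR adjusted p = 1.08e-05). These 3 calls held in all 21 alternative fits and with each library left out. MSH6, which recognises base mismatches, rose 1.67-fold (152 to 169 CPM in vehicle at 20% O2, 262 to 275 CPM in vehicle at 1% O2, edgeR adjusted p = 4.83e-06). It was 0.53 on the log2 scale and no longer called under total size scaling. MSH6 shares its span with the opposite-strand gene FBXO11 over 20786 bases. MSH3, which recognises insertion and deletion loops, stayed at 13.7 to 16.3 CPM over the 9 libraries, and the groups overlapped. PMS2, a mismatch repair endonuclease, was 0.29 ± 0.11 (SE) lower at 1% O2, was not called, and has near-identical pseudogene copies.

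In homologous recombination, 5 of 13 genes rose at 1% O2 and 1 fell (38.5% and 7.69%, against 19.5% and 20.3% of all genes tested). Of the 12912 genes with 10 counts in each library, 26.4% were called higher and 22.5% lower. Among the 5 that rose, RAD51AP1 and BLM lost their calls in 15 and 3 of 21 alternatives. BARD1, the partner of BRCA1 in a ubiquitin ligase, was at 20.7, 19 and 22.6 CPM in vehicle at 20% O2, 47.3, 41.1 and 37.3 CPM in vehicle at 1% O2, and 28.4, 28.6 and 24.3 CPM with 32-134D. The 3 groups did not overlap. It rose 1.99-fold (edgeR adjusted p = 2.09e-06) and was 1.54-fold lower with 32-134D (edgeR adjusted p = 0.000164). The second call, at 0.63 on the log2 scale against a threshold of 0.58, was lost in 10 of 21 alternative fits, DESeq2 among them. It was -0.57 without replicate 1 of vehicle at 20% O2, -0.53 without replicate 1 of vehicle at 1% O2 and -0.56 without replicate 3 of 32-134D. RAD51C, which acts in strand exchange, rose 1.90-fold (edgeR adjusted p = 5.49e-06). RAD54B, a DNA translocase, rose 1.89-fold from 3.61 to 4.59 CPM to 7.71 to 7.87 CPM (edgeR adjusted p = 4.62e-05). It overlaps the same-strand gene FSBP over 64783 bases. BLM, the helicase that dissolves crossed strands, rose 1.60-fold (edgeR adjusted p = 2.59e-05), a call lost under total size scaling. RAD51AP1, which promotes strand pairing, lay on the threshold at 0.59 on the log2 scale and kept its call in 6 of 21 alternatives.

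PALB2, which links BRCA1 to BRCA2, was the recombination gene that fell. Its CPM was 39.7, 40.8 and 43.0 in vehicle at 20% O2, 24.5, 21.2 and 21.6 in vehicle at 1% O2, and 37.1, 38.5 and 41.8 with 32-134D. The vehicle libraries at 1% O2 lay below the rest. The fall was 1.83-fold (edgeR adjusted p = 8.6e-07), the rise with 32-134D 1.74-fold (edgeR adjusted p = 3.07e-06), and both calls held in every alternative fit. BRCA2, a mediator of strand exchange, was 0.48 ± 0.15 (SE) lower on the log2 scale at 1% O2, under the fold threshold, and was called higher with 32-134D at 0.59 ± 0.14 (SE). That call was lost without replicate 2 of vehicle at 1% O2 (0.49) or replicate 3 of 32-134D (0.50), and with length and GC trends removed the value was 0.04 (edgeR adjusted p = 0.779). BRCA1 (51.4 to 62.8 CPM in vehicle at 20% O2, 59.7 to 79.8 CPM in vehicle at 1% O2), RAD54L, XRCC2, XRCC3, RBBP8 and RAD51D were not called in any comparison. Of these, RBBP8, which starts end resection, was 0.43 ± 0.10 (SE) higher with 32-134D at 1% O2 than in vehicle at 20% O2, and its highest library was replicate 3 of 32-134D at 57.9 CPM.

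Within the Fanconi pathway the subunits of the core complex, the ubiquitin ligase that marks FANCD2 and FANCI, moved in both directions. FANCB, a core subunit (chrX:14835961-14873069, minus strand, GRCh38), was at 2.94, 2.67 and 3.95 CPM in vehicle at 20% O2, 8.75, 7.40 and 8.50 CPM in vehicle at 1% O2, and 4.48, 5.86 and 5.35 CPM with 32-134D. The 3 groups did not overlap, although the smallest library held 17 reads. FANCB rose 2.45-fold (edgeR adjusted p = 1.64e-05) and was 1.58-fold lower with 32-134D (edgeR adjusted p = 0.00289). The second call was lost without replicate 3 of vehicle at 1% O2 (-0.57) or replicate 1 of 32-134D (-0.49), under total size (-0.47) or upper quartile scaling (-0.54), and with at least 10 counts required in each library (-0.57).

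FANCA fell from 44.8, 51.3 and 52.3 CPM to 27.7, 27.3 and 28.1 CPM, and stood at 41.5, 41.7 and 38.7 CPM with 32-134D. The groups were separate and the fall was 1.79-fold (edgeR adjusted p = 6.73e-07). FANCL, the catalytic subunit, fell 1.87-fold (edgeR adjusted p = 0.000169) and was 1.69-fold higher with 32-134D (edgeR adjusted p = 0.000782). Its 3 libraries at 20% O2 ranged from 21.2 to 36.6 CPM. FANCF fell 1.74-fold (edgeR adjusted p = 1.47e-05). FANCE rose 1.51-fold, a call kept in 8 of 21 alternatives. FANCG was 0.56 ± 0.09 (SE) higher on the log2 scale and FANCC 0.40 ± 0.10 (SE) lower, both under the fold threshold. FANCM, the translocase that anchors the complex, FANCD2 and FANCI were not called, and FANCD2 lay between 66.8 and 78.8 CPM in all 9 libraries. FANCA and FANCI overlap opposite-strand genes, ZNF276 over 3355 bases and POLG over 12064 bases.

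Of the single-strand break repair genes, PARP1, which senses nicks, was at 422, 442 and 453 CPM in vehicle at 20% O2, 315, 312 and 300 CPM in vehicle at 1% O2, and 421, 414 and 446 CPM with 32-134D. The vehicle libraries at 1% O2 were the lowest. PARP1 was 0.51 ± 0.07 (SE) lower on the log2 scale (edgeR adjusted p = 1.03e-05), a 1.42-fold difference under the threshold. XRCC1, its scaffold, was at 45.6 to 51.5 CPM over the 6 vehicle libraries and was not called. The span of XRCC1 overlaps that of a same-strand gene model, L34079.1, over 25782 bases, so its counts are uncertain.

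Proteins of 1 complex are needed together, so the ratio of their mRNAs was taken in each library. Such a ratio does not depend on how libraries are scaled. The 15 pairs were chosen with the fold changes known and are a description. The log2 ratio of XRCC6 to PRKDC was -0.63 ± 0.28 (SD, n = 3) in vehicle at 20% O2, 1.82 ± 0.11 (SD, n = 3) in vehicle at 1% O2 and -0.46 ± 0.16 (SD, n = 3) with 32-134D. That of XRCC4 to LIG4 was -1.66 ± 0.43, -0.01 ± 0.18 and -1.48 ± 0.27 (SD, n = 3) in the same order. In the core complex, FANCG to FANCA was 0.00 ± 0.12, 1.41 ± 0.04 and 0.33 ± 0.09 (SD, n = 3), so their CPM was close to equal on average at 20% O2 and not at 1% O2.

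FANCB to FANCL moved by 2.24, FANCE to FANCF by 1.38, RAD51C to RAD51D by 1.39 and MRE11 to NBN by 1.09 on the log2 scale between the vehicle groups. BRCA1 to BARD1, where the gene called higher is the second of the pair, went from 1.49 ± 0.18 to 0.69 ± 0.07 (SD, n = 3). RAD51D overlaps RAD51L3-RFFL on the same strand over 29286 bases. The ratios of FANCI to FANCD2, which form a clamp around DNA, differed by 0.07 and those of MRE11 to RAD50 by 0.32, and both overlapped between the vehicle groups.

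**Figure D3:**
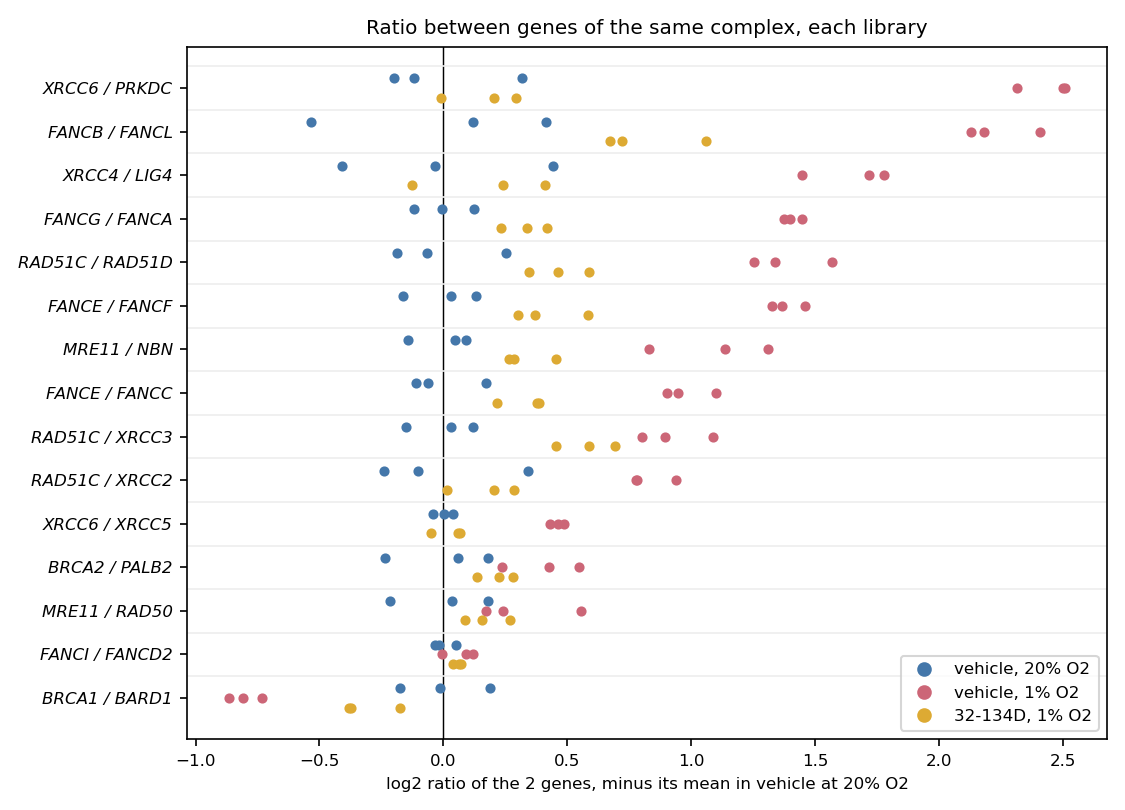
Log2 ratio of the CPM of 2 genes of the same complex in each of the 9 libraries (points), minus the mean ratio in vehicle at 20% O2, for 15 pairs. The vehicle libraries at 1% O2 lie farthest from 0 for XRCC6 to PRKDC, where the mean moved by 2.44, and the 3 groups lie together for FANCI to FANCD2.

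Comparing 32-134D at 1% O2 with vehicle at 20% O2, 2 of the 41 genes were called higher (4.88%, against 3.0% of all genes tested), EXO1 and FANCB. None was called lower by edgeR or by DESeq2 (0.516% of all genes tested were), and 2 were lower at an unadjusted p below 0.05. Of the 12912 genes with 10 counts in each library, 4.12% were called higher and 0.736% lower. The FANCB call (0.63 ± 0.18 (SE), edgeR adjusted p = 0.0368) was lost in 11 of 21 alternatives. Among these were the fits without replicate 1 or 2 of vehicle at 20% O2 (both 0.56), replicate 1 or 2 of vehicle at 1% O2 (both 0.64), and replicate 2 (0.54) or 3 (0.58) of 32-134D. The libraries did not overlap in 15 genes, against 29.8% of all genes tested, and in 11 of the 15 those with 32-134D were the higher. The median log2 fold change of the list was 0.07, and 0.00 over all genes tested.

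Per length, the most abundant repair mRNAs in vehicle at 20% O2 were XRCC6 at 557 TPM, XRCC5 at 391 TPM, PARP1 at 237 TPM and PRKDC at 185 TPM. The median over the list was 19.7 TPM, and RAD50 was lowest at 2.38 TPM. At 1% O2 PRKDC was at 37.4 TPM, and with 32-134D at 168 TPM. EXO1 stood at 23.5 TPM, 88.5 TPM and 42.0 TPM in vehicle at 20% O2, vehicle at 1% O2 and 32-134D. The other genes up to the tenth in that order, RAD51AP1 (73.1 TPM), FANCI (56.7 TPM), MSH6 (56.4 TPM), XRCC1 (54.8 TPM), FANCG (53.0 TPM) and RAD54L (44.8 TPM), lay close together.

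By median, the genes that fell had longer transcripts than those that rose, and this was not tested. The median length of the longest annotated transcript was 4907 bases for the 9 genes lower at 1% O2, 3068 bases for the 11 higher and 4092 bases for the 21 not called, and the 9 lower genes ranged from 1698 to 13509 bases. With the trends of fold change over transcript length and GC content removed in each library, PRKDC (13509 bases) still fell by 1.49 on the log2 scale and was 1.31 higher with 32-134D. The calls of ATM (13147 bases), ATR (8249 bases) and BRCA2 (11986 bases) were lost, as given above. RAD51AP1 and FANCE also lost their calls at 1% O2, at 0.47 and 0.56 log2, and FANCB lost its call against vehicle at 20% O2. In turn, MSH6 at -0.85 and FANCF at 0.60 were then called with 32-134D. The other 15 calls at 1% O2, among them EXO1, CHEK1, BARD1, RAD51C, PALB2, FANCA, FANCL and LIG4, were kept.

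**Figure D4:**
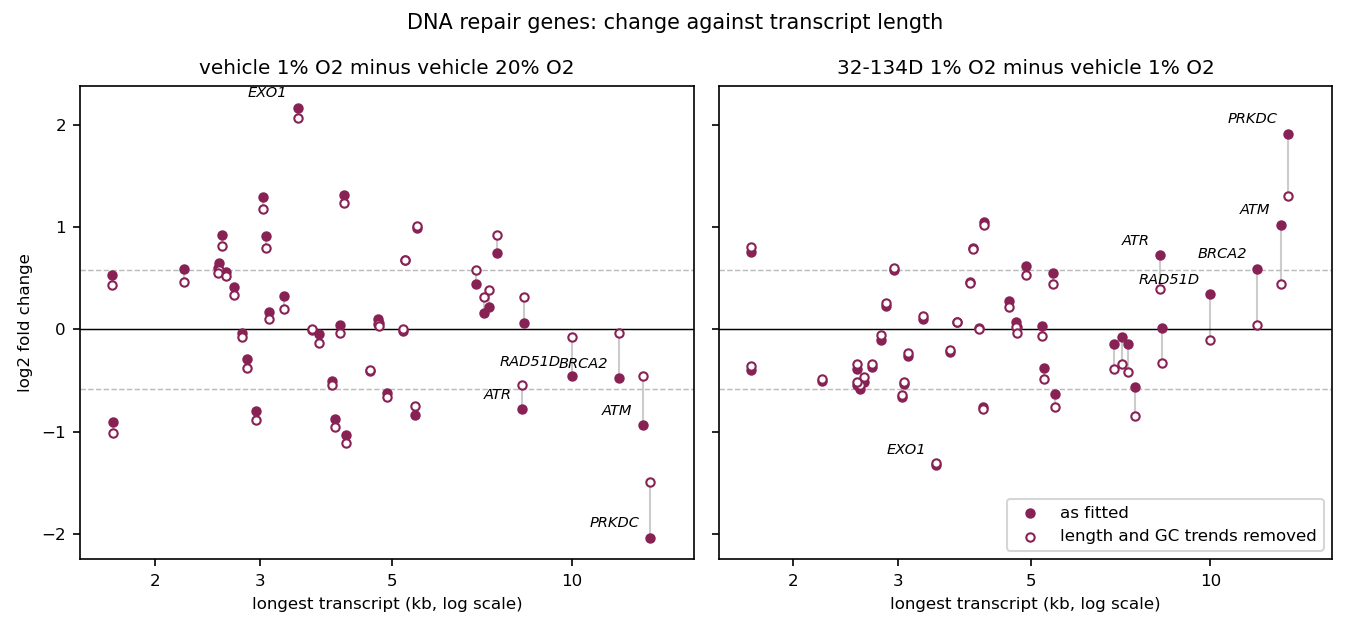
Log2 fold change of the 41 genes against the length of the longest transcript (kb, log scale) for hypoxia and for 32-134D, as fitted (filled) and with length and GC trends removed (open), joined by lines. The 3 longest genes move most at 1% O2, with PRKDC going from -2.04 to -1.49 at 1% O2, and EXO1 goes from 2.17 to 2.07.

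Some repair genes start back to back with another gene on the opposite strand, and how often this holds over all genes was not counted. Of the list, 24 had an annotated opposite-strand start within 1000 bases, 22 of these neighbours were tested, and 17 had a mean of at least 1 CPM. In 8 of the 17 the repair gene was called at 1% O2. Its neighbour was called in the same direction in 2, in the opposite direction in 1 and not called in 5. Of all genes tested, 19.5% were called higher and 20.3% lower at 1% O2. Of those with 10 counts in each library, the shares were 26.4% and 22.5%. PRKDC and MCM4, a subunit of the replicative helicase, start 2 bases apart, and while PRKDC fell by 2.04 on the log2 scale MCM4 was 0.24 ± 0.07 (SE) higher and not called. LIG4 and ABHD13 start 11 bases apart, with log2 fold changes of -1.03 ± 0.15 (SE) and -0.01 ± 0.10 (SE). PALB2 fell by 0.88 and its neighbour DCTN5, at 82 bases, was 0.39 ± 0.07 (SE) higher.

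ATM fell by 0.94 while NPAT, a coactivator of histone genes that starts 158 bases from it, rose by 0.73. FANCB and MOSPD2, 372 bases apart, rose by 1.29 and 1.30. CHEK2 rose by 0.65 and HSCB, an iron-sulfur chaperone, by 1.06. RAD51AP1 and FANCF were called and C12orf4 and GAS2 were not. Among repair genes that were not called, BRCA1 was 0.21 ± 0.11 (SE) higher while NBR1, an autophagy receptor that starts 236 bases away, rose by 1.21 ± 0.07 (SE). NPAT, HSCB and GAS2 overlap their repair gene, and without a stated strand setting some of their reads cannot be told apart.

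**Figure D5:**
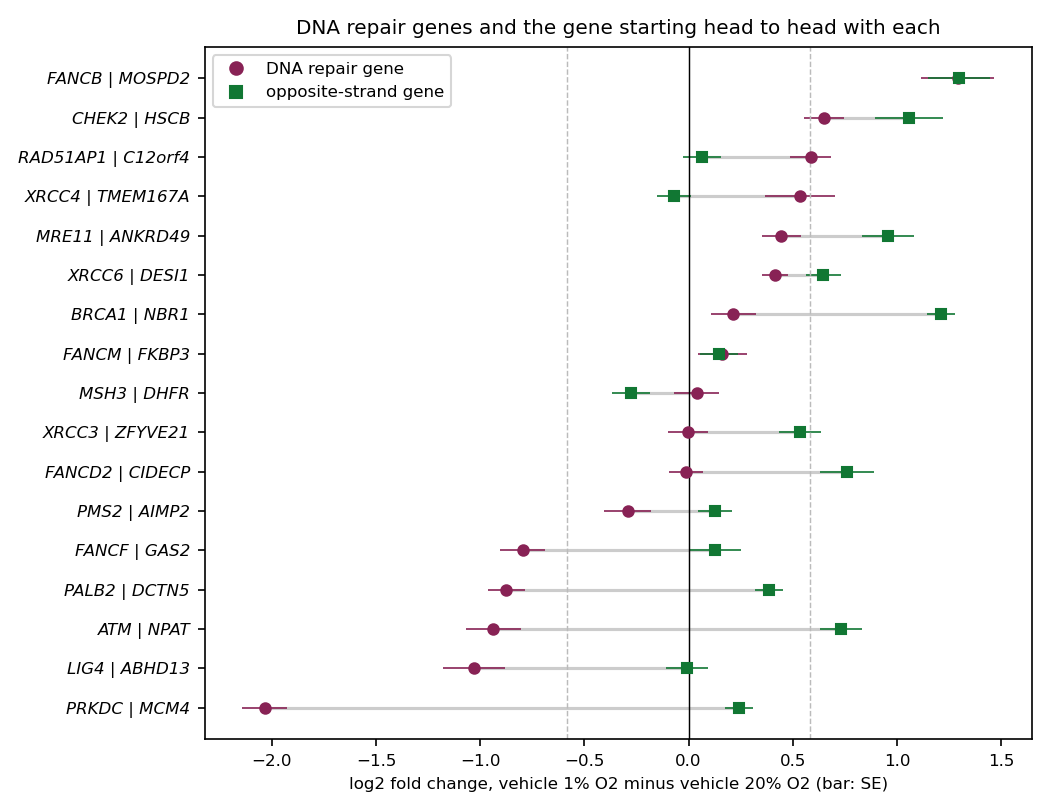
Log2 fold change (with SE as bars) between the vehicle groups for 17 DNA repair genes (circles) and the opposite-strand gene that starts within 1000 bases (squares). MOSPD2 lies on FANCB at 1.30, and MCM4 lies at 0.24 while PRKDC lies at -2.04.

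The letters before the start of EXO1, CHEK1 and FANCB, which rose, and of FANCA, which fell and whose window holds 3 of the motifs, are shown as examples, chosen after their values were seen. The windows are the 250 bases upstream of RefSeq starts on GRCh38.p14, 5′ to 3′ on the gene's strand, with capitals marking any match on either strand to TTTNNCGC (E2F type), CCAAT (bound by NF-Y), TTTGAA (the cell cycle homology region) or ACGTG and GCGTG (cores of the hypoxia response element). Each motif was counted on its own, also where letters overlapped. EXO1 and CHEK1 have several annotated starts, and 2 windows are shown for EXO1. The GENCODE gene spans begin at 241847967 for EXO1 and 125625136 for CHEK1. Most of the first EXO1 window therefore lies inside the gene span, as do all of its second window and all of the CHEK1 window. The EXO1 windows are chr1:241847954-241848203 and chr1:241848481-241848730 and the CHEK1 window is chr11:125626106-125626355, all on the plus strand. FANCB is chrX:14873070-14873319 and FANCA chr16:89816648-89816897, both on the minus strand.
EXO1, first window, rose: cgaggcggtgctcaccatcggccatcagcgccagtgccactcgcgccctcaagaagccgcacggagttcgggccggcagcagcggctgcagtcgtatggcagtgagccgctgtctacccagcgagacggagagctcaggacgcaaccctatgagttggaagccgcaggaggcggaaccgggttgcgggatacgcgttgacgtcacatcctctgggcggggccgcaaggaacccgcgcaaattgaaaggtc
EXO1, second window, rose: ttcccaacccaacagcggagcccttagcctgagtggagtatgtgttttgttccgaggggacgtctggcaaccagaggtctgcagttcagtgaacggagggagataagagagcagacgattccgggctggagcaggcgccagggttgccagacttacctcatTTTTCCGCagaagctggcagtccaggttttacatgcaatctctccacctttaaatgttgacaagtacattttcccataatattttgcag
CHEK1, rose: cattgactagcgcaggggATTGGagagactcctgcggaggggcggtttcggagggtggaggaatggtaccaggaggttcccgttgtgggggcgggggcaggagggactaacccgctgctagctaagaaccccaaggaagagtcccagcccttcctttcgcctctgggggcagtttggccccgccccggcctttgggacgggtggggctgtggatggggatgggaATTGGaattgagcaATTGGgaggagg
FANCB, rose: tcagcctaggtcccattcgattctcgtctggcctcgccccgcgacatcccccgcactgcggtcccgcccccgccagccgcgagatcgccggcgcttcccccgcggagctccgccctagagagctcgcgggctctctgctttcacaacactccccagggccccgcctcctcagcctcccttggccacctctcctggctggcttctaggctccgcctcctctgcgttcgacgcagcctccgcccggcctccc
FANCA, fell: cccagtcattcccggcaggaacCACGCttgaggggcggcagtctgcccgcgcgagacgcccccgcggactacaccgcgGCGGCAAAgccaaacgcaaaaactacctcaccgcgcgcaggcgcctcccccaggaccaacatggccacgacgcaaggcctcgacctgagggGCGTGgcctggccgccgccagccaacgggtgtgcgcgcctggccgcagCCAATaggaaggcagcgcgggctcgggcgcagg

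The first EXO1 window and the FANCB window held none of these letters, and the second EXO1 window held TTTNNCGC from 89 to 82 bases before its start. The CHEK1 window held CCAAT 3 times as its reverse complement, the last from 12 to 8 bases before the start. FANCA, which fell, held TTTNNCGC, CCAAT and GCGTG, the last 2 times. A window was found for 36 of the 41 genes, of which 12 had more than 1, and for 15842 protein-coding genes in all. TTTNNCGC stood in 7 of the 36 genes (19.4%, against 9.5% of all genes with a window), CHEK2, FANCA, FANCC, MSH3, PMS2, EXO1 and XRCC6, of which 2 rose and 1 fell at 1% O2. CCAAT stood in 18 (50.0%, against 40.2%), TTTGAA in 3 (8.3%, against 14.2%), ACGTG in 9 (25%, against 25.3%) and GCGTG in 22 (61.1%, against 45.6%). Among the genes with a window, GCGTG stood in 5 of the 10 called higher and in 5 of the 7 called lower at 1% O2.

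Of 58 further repair genes, 13 were called higher and 10 lower at 1% O2 (22.4% and 17.2%, near the 19.5% and 20.3% of all genes tested), with a median log2 fold change of 0.07. Under total size scaling these counts were 8 and 13, where 13.6% and 25.8% of all genes tested were called. POLK, a polymerase that bypasses lesions, rose by 1.61 ± 0.12 (SE) and PARP2 by 1.13 ± 0.08 (SE). ERCC2, a helicase of nucleotide excision repair, fell from 79.5 to 30.4 CPM (-1.39 ± 0.08 (SE) log2) and was at 65.3 CPM with 32-134D. SLX4, a nuclease scaffold, fell by 1.21 ± 0.12 (SE) and REV3L, a translesion polymerase, fell by 1.20 ± 0.14 (SE). With 32-134D, 6 were called higher, led by REV3L at 1.31, ERCC2 and SLX4, and 8 lower, among them POLK at -0.93 and FAAP24 at -0.93. These are 10.3% and 13.8%, against 16.2% and 13.7% of all genes tested. The counts were 9 and 6 under total size or upper quartile scaling. Against vehicle at 20% O2, POLK was higher by 0.68 and NEIL1, a glycosylase, was lower (-0.75 ± 0.17 (SE)).

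Lists for replication, mitosis and the E2F and RB family are given beside these because repair genes share their timing. Of 36 replication and S phase genes, 10 were called higher and 4 lower at 1% O2 (27.8% and 11.1%, against 19.5% and 20.3% of all genes tested), with a median of 0.30 log2. Of the genes with 10 counts in each library, 26.4% were higher and 22.5% lower. The balance turned to 5 higher and 7 lower under total size scaling, where 13.6% and 25.8% of all genes tested were called. It was 6 and 5 with the upper quartile, against 14.1% and 25.3%. CDT1, which licenses origins, rose by 1.67, GINS3 by 1.47 and MCM10 by 1.29, while the polymerase genes POLE, POLD1 and POLA1 fell, with values of -1.14, -0.69 and -0.67. With 32-134D, 2 were called higher, POLE and POLA1, and 8 lower, led by CDT1, TK1 and GINS3. These are 5.56% and 22.2%, against 16.2% and 13.7% of all genes tested. The counts became 5 and 3 under total size scaling. Of 20 mitosis and proliferation markers, 2 rose (CDK1 and CDC25C) and 3 fell (CENPE, CENPF and MKI67), with a median of 0.03 log2. These are 10% and 15%, against 19.5% and 20.3% of all genes tested. Under total size scaling 1 was higher and 3 lower. With 32-134D the 2 that rose were called lower and the 3 that fell higher (10% and 15%, against 13.7% and 16.2% of all genes tested). Of 19 genes in the E2F and RB family list, 6 rose, led by LIN54 at 1.31, LIN9 at 1.17 and MYBL2 at 0.68, and RBL2 fell by 0.71, with a median of 0.42 log2. These are 31.6% higher and 5.26% lower, against 19.5% and 20.3% of all genes tested. The shares were 26.4% and 22.5% of the genes with 10 counts in each library. The counts were 2 higher and 3 lower under total size or upper quartile scaling, with the shares of all genes as given for replication. The list also holds genes that are neither E2F nor RB proteins, LIN54, LIN9 and MYBL2 among them. With 32-134D, edgeR called 2 of the 19, LIN54 and MYBL2, lower and none higher (10.5% and 0.0%, against 13.7% and 16.2% of all genes tested). In that comparison 6 were higher at an unadjusted p below 0.05 and DESeq2 called 1. Under total size scaling 2 were higher and 1 lower. Against vehicle at 20% O2, edgeR called CDT1 higher at 0.64 and LIN9 higher at 0.59. These are 2.78% and 5.26% of their lists, against 3.0% of all genes tested. DESeq2 called 2 replication genes higher there, and edgeR called 4 without replicate 3 of vehicle at 1% O2 and 3 without replicate 1 or 3 of vehicle at 20% O2. No gene of the E2F and RB list was called by edgeR there without replicate 1 or 2 of vehicle at 20% O2. The same held without replicate 3 of 32-134D. With all libraries, 3 of that list were higher there at an unadjusted p below 0.05 and DESeq2 called 1.

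The mean log2 CPM over the 41 genes varied between 5.16 and 5.37 among the 9 libraries. The 5 genes whose log2 CPM followed that mean most closely, with Pearson's r over the 9 libraries as a description, were CLOCK (0.977), SAR1B (0.975), ACSBG1 (0.952), SMC6 (0.952) and AC090192.2 (0.951). The libraries share their groups, and because the list moved both ways its mean holds little of the change of any single member.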

How the data were processed

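RNA-seq counts per Ensembl gene were deposited by the authors for 9 cultures of Hep3B cells, as raw counts without normalization. The authors checked reads with FastQC, trimmed them with Bbduk, mapped them with STAR to an Ensembl 100 reference of GRCh38 and counted them with featureCounts. Tool versions and the strand setting are not given in the sources used here. Overlaps with other genes are named above for some of the repair genes that have them, not for all. The 9 columns were matched to the labels by name and 0 were unmapped.

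Genes with counts summing to at least 10 (22672 of 60683) entered 1 fit of the 9 libraries. The quasi-likelihood test of edgeR 4.0.16 (R 4.3.3) was used after TMM scaling. The shared biological coefficient of variation was 10.5%. The thresholds (adjusted p below 0.05, fold change above 1.5) and the filter are those of the study's methods, which used DESeq2. SEs were derived from the quasi-likelihood F statistic. Gene positions, transcript lengths and GC content came from GENCODE version 29, and promoter sequences from RefSeq on GRCh38.p14. The alternatives were DESeq2 1.42.0, other scalings, filters, thresholds and gene sets, fits of 2 groups, thinning, removal of length and GC trends, a block for the replicate number and fits that each omitted 1 library. The fit was tested on simulated data. p-values measure the spread between cultures of 1 line. Named are all 41 genes, up to 3 called genes per direction of each other list (1 of these is not reported here), the opposite-strand neighbours, 5 hypoxia markers and the 5 genes most like the mean. The 41 genes and all lists were chosen with earlier results of these data known.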

Additional observations from a re-analysis of the deposited data

How the results depend on the processing

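Of the 20 DNA repair genes called at 1% O2, 12 were called in all 21 alternative fits and 17 with each library left out. With 32-134D against vehicle at 1% O2 these numbers were 5 and 8 of 12. Over the 3 comparisons and all alternatives there were 2583 values of single genes, of which 85 lost a call, 54 gained one and 130 changed sign. In 2 of the sign changes the gene had an adjusted p below 0.05 in either fit: RAD51D with 32-134D went from 0.34 to -0.11 with length and GC trends removed, with and without the replicate block. Precision is limited by 3 replicates per group and the smallest library.

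At 1% O2, 11 higher and 9 lower genes became 6 higher with total library size or upper quartile scaling and 7 higher with at least 10 counts in every library. The shares of all genes called under these scalings are given above. Without a fold threshold 14 were lower, and above 2-fold 3 were higher and 2 lower. With 32-134D, 8 higher and 4 lower became 5 higher with trends removed, and 1 lower (total size), 2 (upper quartile) and 2 (at least 10 counts). Without a fold threshold these were 13 higher and 14 lower, and above 2-fold 3 and 1. Against vehicle at 20% O2, 2 higher became 1 with the upper quartile, only 2 groups, thinning or trends removed, 5 without a fold threshold and 0 above 2-fold, where 0 lower became 1 without it. The cause was not tested. Leaving out 1 library gave 9 to 12 and 9 to 11, 7 to 10 and 3 to 5, and 1 to 3 and 0 calls in the same order.

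Deviations of same-numbered replicates from their group means correlated from -0.14 to 0.06, and those of differently numbered ones from -0.15 to 0.16. Within a group of 3 the deviations sum to 0, so these values cannot show whether the numbers pair the samples. The replicate block gave 10 higher and 9 lower, 8 and 4, and 2 and 0. With the block and trends removed, 5 were higher with 32-134D and 1 against vehicle at 20% O2. For the other lists, 438 counts stayed within 1.5 times and 114 did not.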
